A study of Mus musculus and Rattus norvegicus with 37 samples.

Results

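Transcripts of 7 genes that set the phase of the liver clock were examined in the deposited liver RNA-seq values: the activators Arntl, Clock and Npas2, the REV-ERB receptors Nr1d1 and Nr1d2, the ROR receptor Rora, and Nfil3. Each was taken by its gene name, which occurred once among the 48440 entries of each of the 2 mouse tables and once among the 32750 entries of each of the 2 rat tables. They were listed by name, with earlier results of these data known.

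The mice were C57BL/6J females. LNA29 combines 2 oligonucleotides made of locked nucleic acid (LNA), which bind and block small RNAs, aimed at miR-29a-3p and at miR-29b-3p with miR-29c-3p. It was given once under the skin at 20 mg/kg of each oligonucleotide, control mice received saline, both at ZT 3 (hours after lights on, in a cycle of 12 h light), and livers of fed mice were collected at day 7. The WT/Floxed groups (8 LNA29, 5 saline) pool 7 WT mice aged 9 to 11 weeks with 6 mice that carry the floxed Sirt1 allele, littermates of the mice labelled L-Sirt1 KO (4 LNA29, 4 saline), bred to lack Sirt1 in the liver (the driver of the deletion is not given in the sources used here); floxed and L-Sirt1 KO mice were 15 to 20 weeks old. The 5 saline libraries are those left after the authors set aside 1 saline-treated floxed mouse. The rats were males: fa/fa Zucker Fatty rats (ZFR, 4), whose leptin receptor is mutated, and Zucker Lean rats (ZLR, 4) aged 5.5 months, and ZFR aged 3 months injected daily into the abdomen for 1 week with BT2 (4), an inhibitor of the kinase that holds branched-chain ketoacid dehydrogenase inactive, at 20 mg/kg in dimethylsulfoxide, or with that solvent as vehicle (4), at ZT 3. Rat livers were also taken in the fed state. The hour at which each liver was collected is not given in the sources used here.

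The circadian clock of a liver cell is a feedback loop of transcription factors. BMAL1, the product of Arntl, pairs with CLOCK or with its relative NPAS2 and switches on genes with E-boxes in their control regions, among them the Per and Cry genes, whose products block the pair, the REV-ERB genes Nr1d1 and Nr1d2, and Dbp. REV-ERBs repress and RORs activate through a shared element, the RORE, found at Arntl, Npas2, Clock and Nfil3, so that Arntl and Nr1d1 peak at different times of day. NFIL3, also called E4BP4, represses through the D-box, the element that DBP, TEF and HLF activate.

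Values are normalized counts: reads estimated per gene and divided by a factor for each library, with each of the 4 tables normalized on its own. The 21 mouse libraries held 42.6 to 78.0 M reads by the estimate from the value of 1 read, and the 16 rat libraries 0.188 to 58.5 M, of which 12 held under 5 M. In the L-Sirt1 KO table saline replicate 3 was the lowest of the 8 mice in Arntl, Clock, Npas2 and Nfil3 and the highest in Nr1d1 and Nr1d2, and the fold changes of the 7 genes there are given with and without it. Sirt1 did not tell the labels apart: its gene total was 535 to 617 normalized counts in the mice labelled L-Sirt1 KO and 493 to 699 in WT/Floxed mice, in tables scaled separately, and these totals do not show which exons the reads came from. All 5 hepatocyte markers (Alb, Apoa1, Ttr, Cps1, Hnf4a) were present in every group, with summed levels of 4.19e+06 to 7.31e+06 normalized counts in mice and 166321 to 275740 in rats. Each library has a number and a tag of its own in its title and was taken as 1 animal, and p-values measure the spread between these libraries.

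The miR-29 family, the target of LNA29, is shown here because pairing with its seed is how a miRNA commonly finds a transcript. The mature miRNAs below come from RefSeq (GRCm38.p6), 5′ to 3′, with the seed (bases 2 to 8) in capitals. They share 1 seed.
mmu-miR-29a-3p (Mir29a, chr6:31062673-31062694, minus strand): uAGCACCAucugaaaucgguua
mmu-miR-29b-3p (Mir29b-1, chr6:31063025-31063047, minus strand; Mir29b-2, chr1:195037091-195037113, plus strand): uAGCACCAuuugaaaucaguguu
mmu-miR-29c-3p (Mir29c, chr1:195037600-195037621, plus strand): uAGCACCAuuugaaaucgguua

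The letters TGGTGCT, which pair with that seed, occurred in an annotated 3′ UTR of 2202 of 13483 tested mouse genes with a 3′ UTR (16.3%), searched on the strand of the gene in GRCm38 with GENCODE vM21. Of the 7 clock genes Clock and Rora held them, 2 times each, and Arntl, Npas2, Nr1d1, Nr1d2 and Nfil3 did not. The 3′ UTRs of Clock and Rora are also the longest of the 7 (6831 and 9285 bases, against 269 to 2631). The 30-base windows below, 5′ to 3′ on the gene's strand, have the match in capitals, and the coordinates are those of the match; each is a match of letters only, not a measured site.
Clock, chr5:76210356-76210362, minus strand: agtgatttcaaTGGTGCTatattaggttcc
Clock, chr5:76211330-76211336, minus strand: gtccagtaaagTGGTGCTtgaacataggga
Rora, chr9:69380004-69380010, plus strand: gaaggagtgtcTGGTGCTgtgggcttaaac
Rora, chr9:69386252-69386258, plus strand: tttctgatgtgTGGTGCTagataagttact

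Both Clock matches lie in 1 of its 3 coding transcripts and both Rora matches in 1 of its 2, and gene totals do not separate transcripts. In each gene 1 of the 2 matches is followed by A, the longer form of the match, which 3.51% of the tested genes hold.

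In GRCm38 the genes lie at chr7:113207465-113314126 (Arntl, plus strand), chr5:76209868-76304792 (Clock, minus), chr1:39193731-39363236 (Npas2, plus), chr11:98767932-98775333 (Nr1d1, minus), chr14:18204054-18239127 (Nr1d2, minus), chr9:68653786-69388246 (Rora, plus) and chr13:52967209-52981073 (Nfil3, minus). Nr1d1 and Thra, a thyroid hormone receptor gene on the other strand, share 263 exon bases. Antisense genes share 33 exon bases with Arntl (Gm45355) and 82 with Rora (Gm15511). Gm20428 and Gm3617 lie within Npas2 and Ube2n-ps1 and Gm43658 within Clock, with 0 shared exon bases. Whether the counting used the strand is not given in the sources used here, so reads from these shared bases cannot be assigned. Thra itself differed little with LNA29 in mice (log2 fold change 0.15, adjusted p = 0.492 by limma in WT/Floxed mice, and 0.077, adjusted p = 0.784, under the L-Sirt1 KO label), while in rats it was near the minimum of the test (1.13, adjusted p = 0.577 for ZFR against ZLR and 0.068, adjusted p = 0.983 for BT2).

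The element through which REV-ERBs and RORs act can be looked for in the promoters. Over RefSeq promoters of 300 bases (250 before and 50 after the start, GRCm38.p6, both strands), the RORE core TAGGTNA occurred in 2723 of 32851 windows (8.29%), and among the 10 windows of the 7 genes it occurred in 3, of Arntl and Nfil3. The Arntl windows overlap and share a match, so by gene the core occurred in 2 of 7. The E-box CACGTG (7.15% of all windows) and the D-box TTANGTAA (2.32%) occurred in none of the 10. The stretches below are those of Arntl and Nfil3 that hold the matches, which are in capitals. Whether the matches bear on how these genes varied among the mice was not tested.
Arntl, chr7:113207451-113207560, plus strand: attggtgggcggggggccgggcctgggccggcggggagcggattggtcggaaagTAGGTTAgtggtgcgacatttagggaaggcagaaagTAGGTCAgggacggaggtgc
Nfil3, chr13:52980990-52981099, minus strand: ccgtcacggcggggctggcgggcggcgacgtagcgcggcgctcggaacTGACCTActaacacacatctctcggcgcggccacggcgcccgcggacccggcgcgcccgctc

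The Arntl stretch holds 2 matches, at chr7:113207505-113207511 and chr7:113207541-113207547, and the Nfil3 stretch holds 1 in the opposite orientation, at chr13:52981045-52981051. A window without these letters says only that they are not in those 300 bases.

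The 7 genes were all well measured in mice. Per kilobase of the longest coding transcript, the mean over the 21 mice was highest for Nfil3 (1523 normalized counts per kb) and Nr1d1 (1030.2), followed by Arntl (508), Nr1d2 (430.5), Rora (368), Clock (262) and Npas2 (152). They also differed in how much they varied between animals. From the lowest to the highest of the 21 mice Nr1d1 spanned 19.9-fold, Npas2 11.2-fold, Nr1d2 6.38-fold, Arntl 5.10-fold, Nfil3 4.73-fold, Clock 2.01-fold and Rora 1.61-fold. These spans run over all groups and both separately normalized tables. For every gene but Rora, L-Sirt1 KO saline replicate 3 was an end of the span. Within the WT/Floxed LNA29 group the spans were 11.2-fold for Nr1d1, 3.56-fold for Npas2 and 2.90-fold for Nr1d2. There Arntl spanned 1.35-fold, Clock 1.31-fold, Nfil3 1.30-fold and Rora 1.23-fold. Within the WT/Floxed groups the residual SD of Nr1d1 was larger than that of 98.0% of all tested genes, that of Npas2 than 89.8% and that of Nr1d2 than 87.8%. Arntl stood at the 50.3 percentile, and Clock (34.5), Nfil3 (31.7) and Rora (21.3) varied less than most genes. In the mice labelled L-Sirt1 KO, saline replicate 3 included, Rora again varied little (14.5 percentile) and Npas2 (96.4), Nr1d1 (95.9), Nr1d2 (92.2) and Arntl (91.8) varied more than most.

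**Figure D1:**
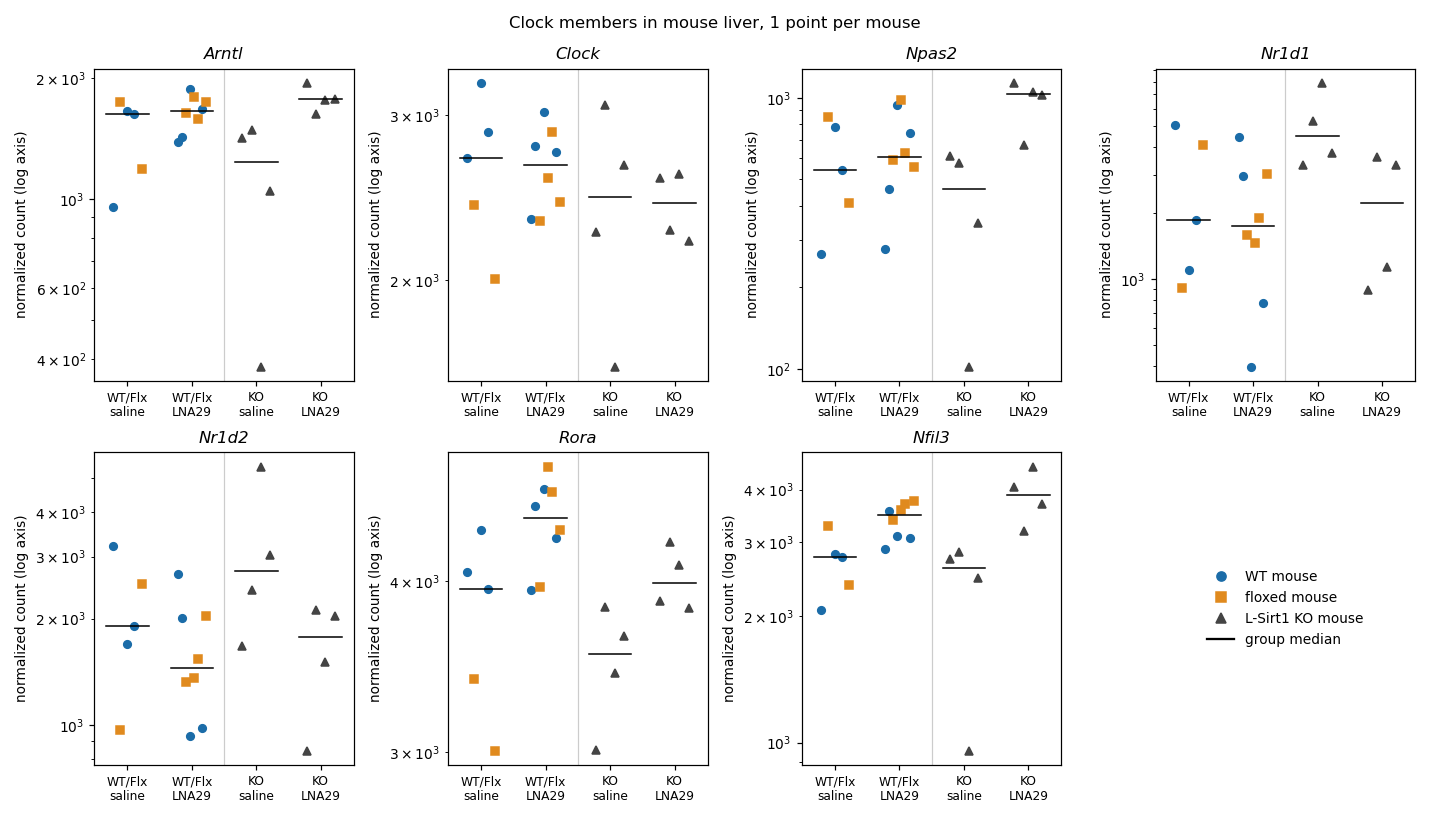
Normalized count (log axis) of the 7 clock genes in each mouse liver, by treatment, with the line at the group median; blue circles are WT, orange squares floxed and grey triangles L-Sirt1 KO mice, and the grey vertical line parts the 2 tables, which were normalized separately. The lowest triangle for Arntl (382), Npas2 (102) and Nfil3 (958) is 1 mouse, L-Sirt1 KO saline replicate 3, which is also the highest for Nr1d1 (7905) and Nr1d2 (5395).

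LNA29 against saline in WT/Floxed mice asks how blocking miR-29 bears on the clock genes where hepatic Sirt1 is present. Nfil3 was the gene of the 7 that rose, by 1.27-fold as a ratio of means. Rora was 1.17-fold higher, with an unadjusted p under 0.05 and an adjusted p above 0.2. Arntl, Npas2, Nr1d1, Nr1d2 and Clock did not pass the test. Thus 1 of 7 genes met the criteria (p under 0.05, adjusted p under 0.2, mean above 50, fold change above 1.2), while 4.35% of the 15811 genes tested did, and 2 of 7 had an unadjusted p under 0.05, against 13.3% of all genes. The median log2 fold change was 0.21 over the 7 genes and 0.0017 over all genes.

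Nfil3 was at 3377 ± 323 (SD, n = 8) normalized counts with LNA29, with 2889.9, 3471 and 3757 as its lowest, median and highest values. Its 5 saline values were 2069, 3277, 2814, 2762 and 2377. The saline mice lay below the lowest LNA29 mouse except for replicate 2, through which the groups overlapped (log2 fold change 0.36, SE 0.10, adjusted p = 0.124, limma with Benjamini-Hochberg adjustment). The difference was positive in 3 of 3 flow cells (0.29 to 0.40 on the log2 scale) and in both backgrounds (0.32 to 0.37), and a two-sided exact permutation test over the 1287 assignments of mice to groups gave p = 0.00777. Arntl and Rora, which did not meet the criteria, were also higher in 3 of 3 flow cells and in both backgrounds. The call of Nfil3 was not firm: it was lost, at adjusted p values of 0.273 without saline replicate 1, 0.227 without saline replicate 5, and 0.201, 0.228 and 0.230 without LNA29 replicates 5, 6 and 8. Bulk values cannot tell fewer cells of a type from less RNA per cell, here or in any comparison that follows.

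Rora reached 3941, 4451 and 4850.1 (lowest, median, highest) with LNA29 and 4066, 3396, 4361, 3946 and 3010.0 with saline. The lowest 2 values were saline mice, both floxed, and the others intermixed (log2 fold change 0.24, SE 0.089, limma adjusted p = 0.238). The difference was 0.47 in floxed and 0.080 in WT mice on the log2 scale, with 2 floxed saline mice behind the former, and Rora passed the criteria without LNA29 replicate 1 (adjusted p = 0.173) or saline replicate 3 (adjusted p = 0.163). Clock, the other gene with miR-29 seed matches, had nearly equal means, 2633 ± 266 with LNA29 and 2648 ± 473 with saline (log2 fold change 0.0044, 95% interval -0.21 to 0.22, limma adjusted p = 0.992).

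Arntl was at 1642 ± 169.8 normalized counts with LNA29 (1390.2, 1655 and 1879 as lowest, median and highest) and its saline values were 956, 1741, 1654, 1631 and 1189.5. Saline replicate 1 was the lowest of all 13 mice and the medians nearly coincided (log2 fold change 0.23, SE 0.14, limma adjusted p = 0.525). Npas2, the alternative partner of BMAL1, ran from 277 to 984 with LNA29 and from 267 to 851 with saline, so its groups covered nearly the same range (log2 fold change 0.21, 95% interval -0.40 to 0.82). For the repressors the ranges were wider still. Nr1d1 had 398, 1746 and 4466 as lowest, median and highest with LNA29 and 5054, 911, 1102, 1855 and 4105 with saline, with an interval for the difference of -1.42 to 0.75, which leaves both a fall and a rise possible. Nr1d2 had 926, 1445 and 2684 and 3217, 967, 1692, 1901 and 2514, with an interval of -0.90 to 0.23. The mouse lowest in Arntl and Npas2, saline replicate 1, was the highest saline mouse for both REV-ERBs.

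Among 16 other clock genes (which include the Per and Cry genes, the D-box factors Dbp, Tef and Hlf, Ciart, Bhlhe40, Bhlhe41, Csnk1d and Csnk1e), 15 were tested and 1 met the criteria (4.35% of all genes did), the repressor Cry2, which fell (log2 fold change -0.46, SE 0.11, limma adjusted p = 0.0476). The differences of largest size were those of Dbp (-1.12, adjusted p = 0.537) and Cry2. Of the cell type markers, Col1a1 of stellate cells, which the paper treats as a target gene of miR-29, rose (0.87, limma adjusted p = 0.123). Lyve1 of endothelial cells fell (-0.51, limma adjusted p = 0.165) and Apoa1 of hepatocytes rose (0.51, limma adjusted p = 0.0312). A log2 fold change above 0 was seen for 4 of 5 stellate, 2 of 5 endothelial and 4 of 5 hepatocyte markers. The 5 stellate markers summed to 5585 to 7198 normalized counts with LNA29 and 4879 to 6099 with saline, the 5 endothelial markers to 6859 to 10936 and 8173 to 10791, and the part of these cells in the Nfil3 difference was not tested. None of the 5 markers of either list was at 0.

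WT and floxed mice differ in line and age, and the labels do not separate the 2, nor the 2 institutes at which the mice were treated. With treatment as a term, 0 of 7 genes differed between floxed and WT mice at an adjusted p under 0.05 by limma, where 5.66% of all genes did, and 1 of 7 had an unadjusted p under 0.05, against 25.4%. That gene was Clock, lower in floxed mice (log2 fold change -0.21, SE 0.090, limma adjusted p = 0.156). Of the other clock genes the largest differences were those of Per1 (-0.67, adjusted p = 0.299) and Dbp (0.47, adjusted p = 0.700), and 0 of 15 passed.

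The same treatment in mice labelled L-Sirt1 KO asks what LNA29 does where hepatic Sirt1 is deleted. The activators Arntl and Npas2 and the D-box repressor Nfil3 were higher with LNA29 in every treated mouse than in any saline mouse, by 1.64-fold, 2.37-fold and 1.72-fold as ratios of means, and the REV-ERBs Nr1d1 and Nr1d2 had means of 0.444 and 0.520 times the saline means. No gene of the 7 passed the adjusted test. By limma 0 of 7 met the criteria, where 1.87% of 15885 genes did, and 6 of 7 had an unadjusted p under 0.05, against 11.2% of all genes. Values of 3 of 7 genes were higher without overlap, as for 3.65% of all genes. The median log2 fold change was 0.21 over the 7 genes and -0.0027 over all genes.

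Arntl was 1949, 1625, 1762 and 1781 with LNA29 and 1423, 1490.5, 382 and 1049.7 with saline. Every LNA29 mouse lay above every saline mouse, most narrowly between 1625 and 1490.5, and saline replicate 3 lay far below the rest (log2 fold change 0.89, SE 0.37, limma adjusted p = 0.410). Without that replicate the log2 fold change was 0.44 (limma adjusted p = 0.290).

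Npas2 was 1137, 670.4, 1047 and 1022 with LNA29 and 608, 577, 102 and 345 with saline. The groups did not overlap, LNA29 replicate 2 being nearest to the saline mice and saline replicate 3 farthest below (log2 fold change 1.51, SE 0.50, limma adjusted p = 0.293). Without saline replicate 3 the log2 fold change was 0.94 (limma adjusted p = 0.207), just short of the limit of 0.2, and with a weight for the quality of each sample Npas2 passed (1.49, adjusted p = 0.148).

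Nfil3 was 4058, 3191, 4535 and 3702 with LNA29 and 2739, 2848, 958 and 2467 with saline. The groups were again separate (log2 fold change 0.89, SE 0.31, limma adjusted p = 0.324). Here leaving out saline replicate 3 reduced the difference to 0.52 but brought it past the criteria (limma adjusted p = 0.184), with a residual SD of 0.18 in place of 0.55. For Arntl, Npas2 and Nfil3 alike the two-sided exact permutation test gave p = 0.0286, the smallest that 4 mice against 4 allow.

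Nr1d1 was 890.2, 3626, 1135 and 3340.4 with LNA29 and 3323, 5268, 7905 and 3771 with saline. Of the treated mice 2 were low and 2 were near the lower saline values, and the groups overlapped at 1 saline mouse (log2 fold change -1.35, SE 0.47, limma adjusted p = 0.319, or -1.11 without saline replicate 3, adjusted p = 0.446). Nr1d2 was 845, 2122, 1511 and 2029 with LNA29 and 1669, 2416, 5395 and 3028 with saline, with saline replicate 3 highest and the groups overlapping at saline replicate 1 (log2 fold change -0.90, SE 0.37, limma adjusted p = 0.412, or -0.59 without saline replicate 3, adjusted p = 0.560).

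Rora, the activating counterpart of the REV-ERBs, was 3868, 4275, 4113 and 3826 with LNA29 and 3014, 3831, 3429 and 3647 with saline. Its treated mice overlapped the saline mice at 1 value only (log2 fold change 0.21, SE 0.092, limma adjusted p = 0.435, or 0.21 without saline replicate 3, adjusted p = 0.518). Clock was 2570.4, 2264, 2599 and 2203 with LNA29 and 2252, 3078, 1616 and 2652 with saline, the saline mice spreading on both sides of the treated ones, with a log2 fold change of 0.041 and a 95% interval of -0.31 to 0.39, or -0.14 without saline replicate 3 (limma adjusted p = 0.741). The sign of the difference was the same in 3 of 3 flow cells for Arntl (0.24 to 1.49 on the log2 scale), Npas2 (0.52 to 2.44), Nfil3 (0.39 to 1.27), Rora (0.10 to 0.43), Nr1d1 (-2.21 to -0.71) and Nr1d2 (-0.99 to -0.32), each flow cell having 1 or 2 mice of a group.

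Within a mouse, the log2 level of Arntl minus that of Nr1d1 was -0.075 ± 1.13 in the LNA29 group and -2.31 ± 1.40 in the saline group labelled L-Sirt1 KO (mean ± SD, n = 4 each, with saline replicate 3 at -4.37 and the other 3 saline mice at -1.84 to -1.22), and -0.013 ± 1.25 (n = 8) and -0.57 ± 1.46 (n = 5) in the WT/Floxed groups. Npas2 minus Clock, the balance of the partners of BMAL1, was -1.34 ± 0.29 and -2.80 ± 0.89 in the mice labelled L-Sirt1 KO and -2.11 ± 0.52 and -2.32 ± 0.67 in WT/Floxed mice. Both means were higher with LNA29 than with saline in either table, and between the WT/Floxed groups the step was smaller than the SDs.

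Of the 16 other clock genes, 15 were tested in mice labelled L-Sirt1 KO and 0 met the criteria by limma. Among those with an unadjusted p under 0.05, Dbp (-3.04, adjusted p = 0.302), Tef (-0.83, adjusted p = 0.421) and Bhlhe40 (-0.77, adjusted p = 0.398) were lower. The differences of largest size were those of Dbp and Ciart (-1.55, adjusted p = 0.571). Dbp, a direct E-box target, was 81.4, 86.6, 48.5 and 68.4 normalized counts with LNA29 and 217, 146, 7449 and 480.3 with saline. Saline replicate 3 was again the mouse apart, and without it the log2 fold change of Dbp was -1.82 and passed the criteria (limma adjusted p = 0.127).

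Some markers of other cell types moved with LNA29 in these mice. Col1a1 of stellate cells, which the paper treats as a target gene of miR-29, rose (1.71, limma adjusted p = 0.00783). The 5 stellate markers, Col1a1 among them, summed to 7207 to 8366 with LNA29 and 6145 to 6417 with saline without overlap. Of the 5, 1 met the criteria. Lyve1 of endothelial cells fell (-1.17, limma adjusted p = 0.115), as did Clec4f of Kupffer cells (-0.29, limma adjusted p = 0.189). The 5 endothelial markers summed to 8560.5 to 9527 with LNA29 and 8836 to 10115 with saline, and the 5 Kupffer markers to 8096 to 10652 and 10026 to 11899.5. A log2 fold change above 0 was seen for 2 of 5 endothelial and 1 of 5 Kupffer markers. No marker of these lists was at 0, and their part in the differences of the clock genes was not tested.

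Whether the response to LNA29 differs between mice labelled L-Sirt1 KO and WT/Floxed mice was tested as an interaction over all 21 mice. By limma 0 of 7 genes passed at an adjusted p under 0.2, where 0.0449% of 15601 genes did, and 1 of 7 had an unadjusted p under 0.05, against 9.14%. That gene was Npas2, with a response larger by 1.30 on the log2 scale in mice labelled L-Sirt1 KO (SE 0.60, limma adjusted p = 0.519). The interaction was 0.66 for Arntl (95% interval -0.055 to 1.38), 0.53 for Nfil3 (-0.058 to 1.12), -1.02 for Nr1d1 (-2.68 to 0.64) and -0.56 for Nr1d2 (-1.55 to 0.43), intervals that hold both 0 and differences of over 1. Without saline replicate 3 of the L-Sirt1 KO label the terms shrank to 0.73 for Npas2, 0.22 for Arntl, 0.16 for Nfil3, -0.78 for Nr1d1 and -0.25 for Nr1d2. With all mice the term was near 0 with narrower intervals for Clock (0.037, -0.36 to 0.44) and Rora (-0.028, -0.29 to 0.23). All of these intervals use the normal quantile and so are narrower than the limma tests imply. Of the other clock genes 0 passed, and the largest terms were those of Dbp (-1.92, adjusted p = 0.687) and Ciart (-1.15, adjusted p = 0.803).

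**Figure D2:**
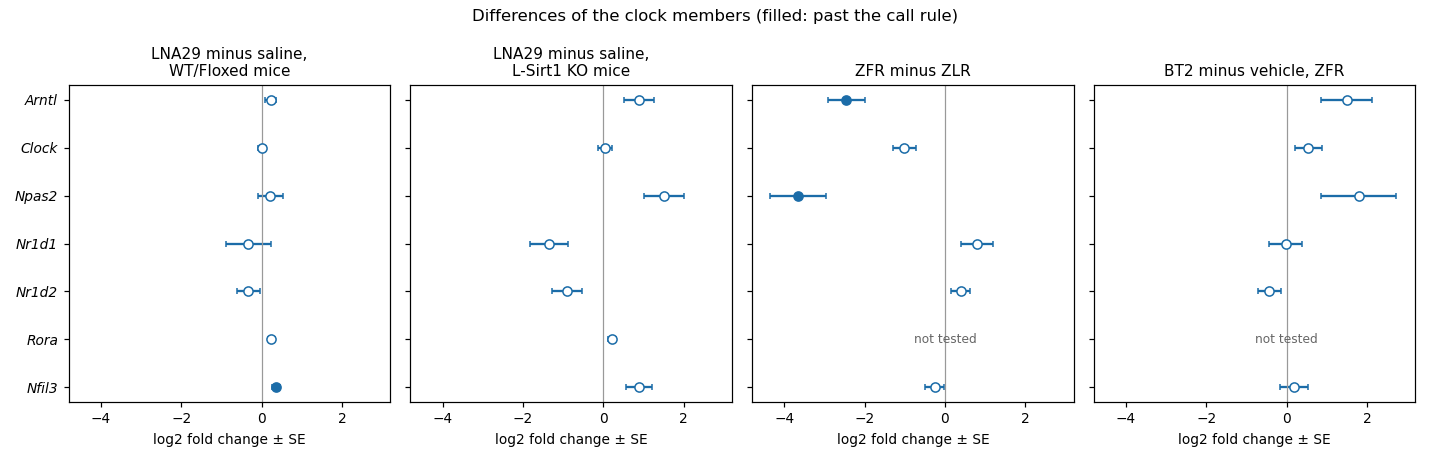
Log2 fold change of each clock gene (on the log2(normalized count + 1) scale, bars ± SE from limma) in the 4 comparisons, filled where it passed the call rule of that comparison. Filled points are Nfil3 with LNA29 in WT/Floxed mice (0.36) and Arntl (-2.46) and Npas2 (-3.65) in ZFR against ZLR; Rora was below the minimum mean in rats and was not tested there.

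The animals of one group differed in a shared way, which the deviation of each mouse from the mean of its group shows. Among the 13 WT/Floxed mice Npas2 varied with Arntl (Pearson's r = 0.87, permutation p = 4.00e-05, Spearman's rho = 0.857, permutation p = 0.000140), and the REV-ERBs varied against it. For Nr1d1 the values were r = -0.78, permutation p = 0.000660, rho = -0.835, permutation p = 0.000510, and for Nr1d2 r = -0.78, permutation p = 0.00193, rho = -0.742, permutation p = 0.00272. Nfil3 followed Arntl less tightly (r = 0.73, permutation p = 0.0200, rho = 0.665, permutation p = 0.0357). Clock (r = 0.32, permutation p = 0.453) and Rora (r = 0.21, permutation p = 0.623) did not pass. Without the 2 mice farthest in Arntl, saline replicates 1 and 2, r was 0.82 for Npas2, -0.76 for Nr1d1, -0.70 for Nr1d2 and 0.43 for Nfil3, so the relation of Nfil3 rests partly on these mice, while r rose to 0.67 for Clock and 0.76 for Rora.

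In the 8 mice labelled L-Sirt1 KO the same order returned for Npas2 (Pearson's r = 0.98, exact permutation p = 0.00694, Spearman's rho = 0.881, exact permutation p = 0.0104) and Nr1d2 (r = -0.76, exact permutation p = 0.0104, rho = -0.833, exact permutation p = 0.0104). Without the 2 mice farthest in Arntl, which include saline replicate 3, r was 0.93 and -0.82. Nfil3 had r = 0.97 (exact permutation p = 0.0139) with all mice and 0.54 without those 2, and Clock 0.85 (exact permutation p = 0.0972) and -0.30, so these 2 relations rest on them. Nr1d1 had r = -0.45 (exact permutation p = 0.0538) with all mice and -0.45 without those 2. Rora had -0.028 (exact permutation p = 0.957) with all mice and -0.94 without them, the opposite sign to its r in WT/Floxed mice without their 2 farthest. The smallest p that permutation within these groups allows is 0.00174. The relations tested numbered 6 in either mouse table, and a flow cell held at most 5 libraries of a table, too few for a correlation within it.

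**Figure D3:**
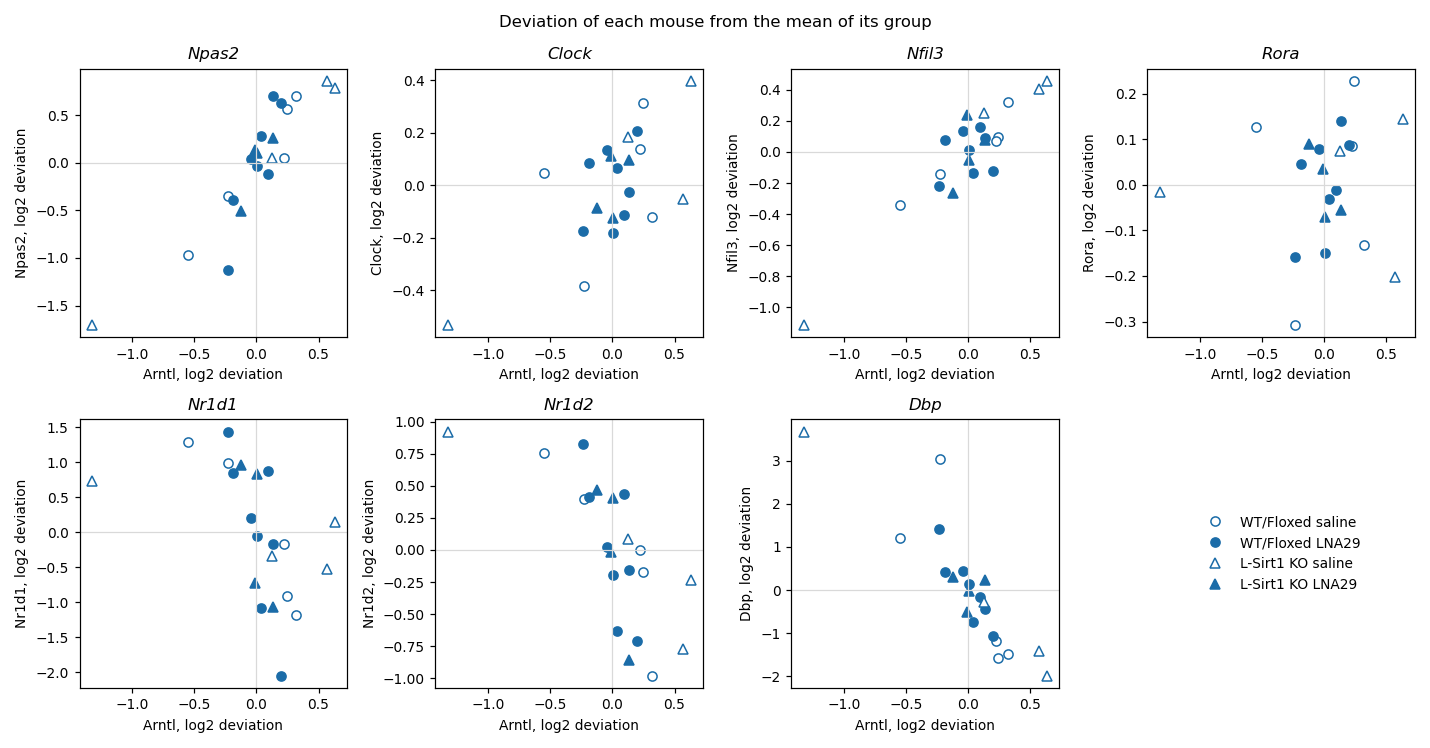
Deviation of each mouse from the mean of its own group on the log2 scale, for Arntl (x axis) against 6 clock genes and Dbp (y axis); circles are WT/Floxed, triangles L-Sirt1 KO, open saline and filled LNA29. Npas2 lies along a rising line and Nr1d2 and Dbp along falling ones in both genotypes, while the slope of Rora depends on the mice farthest in Arntl (r without 2 of them 0.76 in WT/Floxed and -0.94 in L-Sirt1 KO mice).

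Fitted over all genes with the groups as terms, the slope on Arntl passed an adjusted p under 0.05 in mice labelled L-Sirt1 KO for 1 of 6 clock genes, Npas2 (limma adjusted p = 0.0136), where 0.0126% of 15884 genes did. The other such gene was Dbp (adjusted p = 0.00558). Npas2 lost the call without any of saline replicates 1, 2 and 3 or LNA29 replicates 1 and 4, at adjusted p values of 0.0529, 0.113, 0.932, 0.0543 and 0.0563, and Nfil3 gained one without LNA29 replicate 3 (0.0302). In WT/Floxed mice 0 of 6 passed, with 0.00% of 15810 genes (Npas2 adjusted p = 0.338). Without the 2 libraries farthest in Arntl the calls changed places: Npas2 passed in WT/Floxed mice (limma adjusted p = 0.0495), where 214 of all genes then did, and lost its call under the L-Sirt1 KO label (adjusted p = 0.172). Both rat tables gave 0 of 5 genes by limma, with 0.00% of 8632 and 8404 genes.

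The other pairs show which members ran together, given here as a description over 13 WT/Floxed and 8 L-Sirt1 KO mice. The REV-ERBs Nr1d1 and Nr1d2 had r = 0.94 and 0.82. Npas2 ran against Nr1d2 (r = -0.88 and -0.81) and against Nr1d1 (-0.87 and -0.54). Clock and Rora, the genes with miR-29 seed matches, formed a pair of their own in WT/Floxed mice (r = 0.89), weaker in mice labelled L-Sirt1 KO (0.43). They are also the longest of the 7 transcripts, and the mice are the same points in every pair, sharing library and depth. The WT/Floxed deviations were taken from treatment means that pool WT with floxed mice. Among saline mice Clock was 2703 to 3251 in WT and 2005 to 2403 in floxed mice, and Rora 3946 to 4361 and 3010 to 3396. With LNA29 the 2 backgrounds overlapped in both genes. The part of line or age in this r was not tested.

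**Figure D4:**
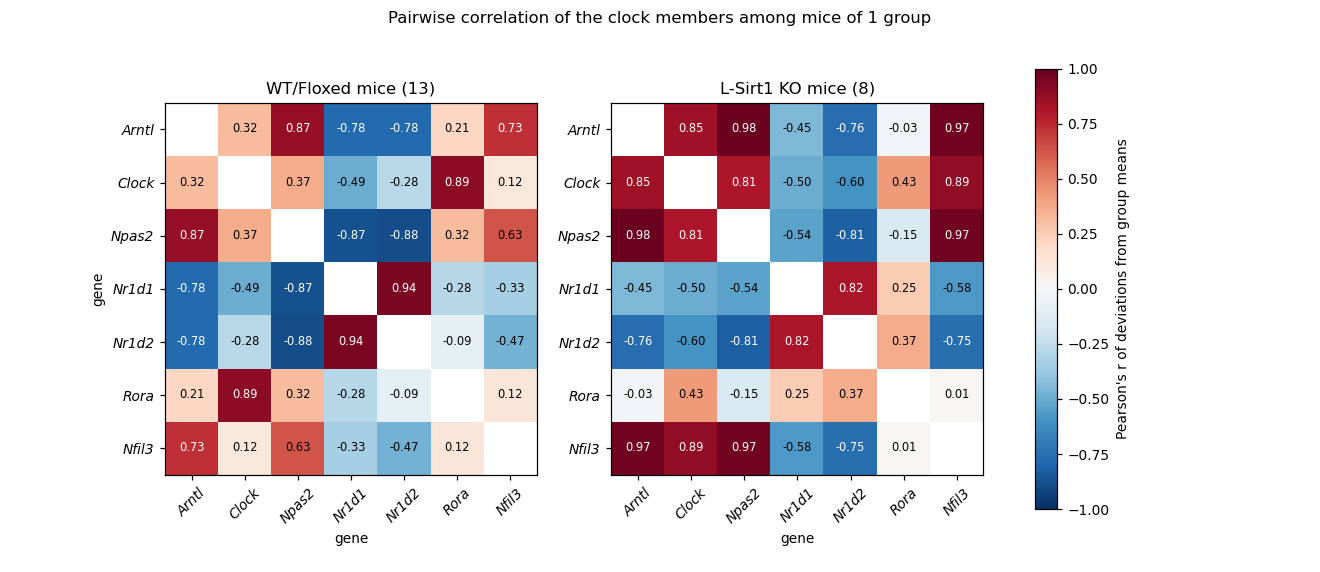
Pearson's r of each pair of clock genes over deviations from group means of log2(normalized count + 1), in WT/Floxed mice (13 libraries, left) and L-Sirt1 KO mice (8 libraries, right), red for positive and blue for negative values. Arntl and Npas2 (0.87 and 0.98) are red and both run blue against Nr1d2 in either panel, while Clock with Rora is strongly red at the left only (0.89 and 0.43).

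Over all 21 mice and 12758 genes with a mean above 50, the genes whose deviations were most like those of Arntl were Nfil3 (r = 0.92), Npas2 (0.91), Leo1 (0.90), Lgalsl (0.86) and Dnmt3b (0.82). Most unlike it were Dbp (-0.88), Bhlhe40 (-0.84), Jade1 (-0.83), 1810013L24Rik (-0.81) and Junb (-0.81). Cry1 ranked 8 and Clock 75 from the top, and Nr1d2, Per3 and Cry2 lay among the genes at the bottom (r = -0.71, -0.79 and -0.79), where the median over all genes was 0.013. Over the 16 rats and 3540 genes the most like were LOC108348062 (0.74), Coro1c (0.74), Efna1 (0.72), Nfil3 (0.71) and Pltp (0.68), and among the most unlike were Vac14 (-0.74), Add1 (-0.72), Enpp2 (-0.70) and Aldh3a2 (-0.66). Nfil3 was among the 5 nearest to Arntl by Pearson's r in both species. By Spearman's rho it was at 0.730 in mice, below Npas2 (0.900), Dnmt3b (0.795), Cry1 (0.788), Lgalsl (0.777) and Leo1 (0.758). In rats its rho was 0.594, below Pltp (0.756), Efna1 (0.659) and Coro1c (0.618). Without the 2 animals farthest in Arntl, r of Nfil3 was 0.43 in WT/Floxed and 0.54 in L-Sirt1 KO mice. Among rats it was then 0.72 in the ZFR and ZLR table and -0.39 in the BT2 table.

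In rats the counts were small, and a value must be read with its library. A single read was worth 0.0322 normalized counts in the deepest and 10.5 in the shallowest library, and 5 of 8 libraries of the ZFR and ZLR table and 7 of 8 of the BT2 table held under 5 M reads. Rora averaged 6.83 and 5.56 normalized counts in the 2 tables, under the minimum of 10, and was not tested. Its values were 6.25, 8.42, 0 and 10.4 in ZLR and 6.69, 8.24, 8.36 and 6.22 in ZFR, 3.66, 4.03, 2.75 and 20.6 with vehicle and 0, 5.34, 8.03 and 0 with BT2.

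**Figure D5:**
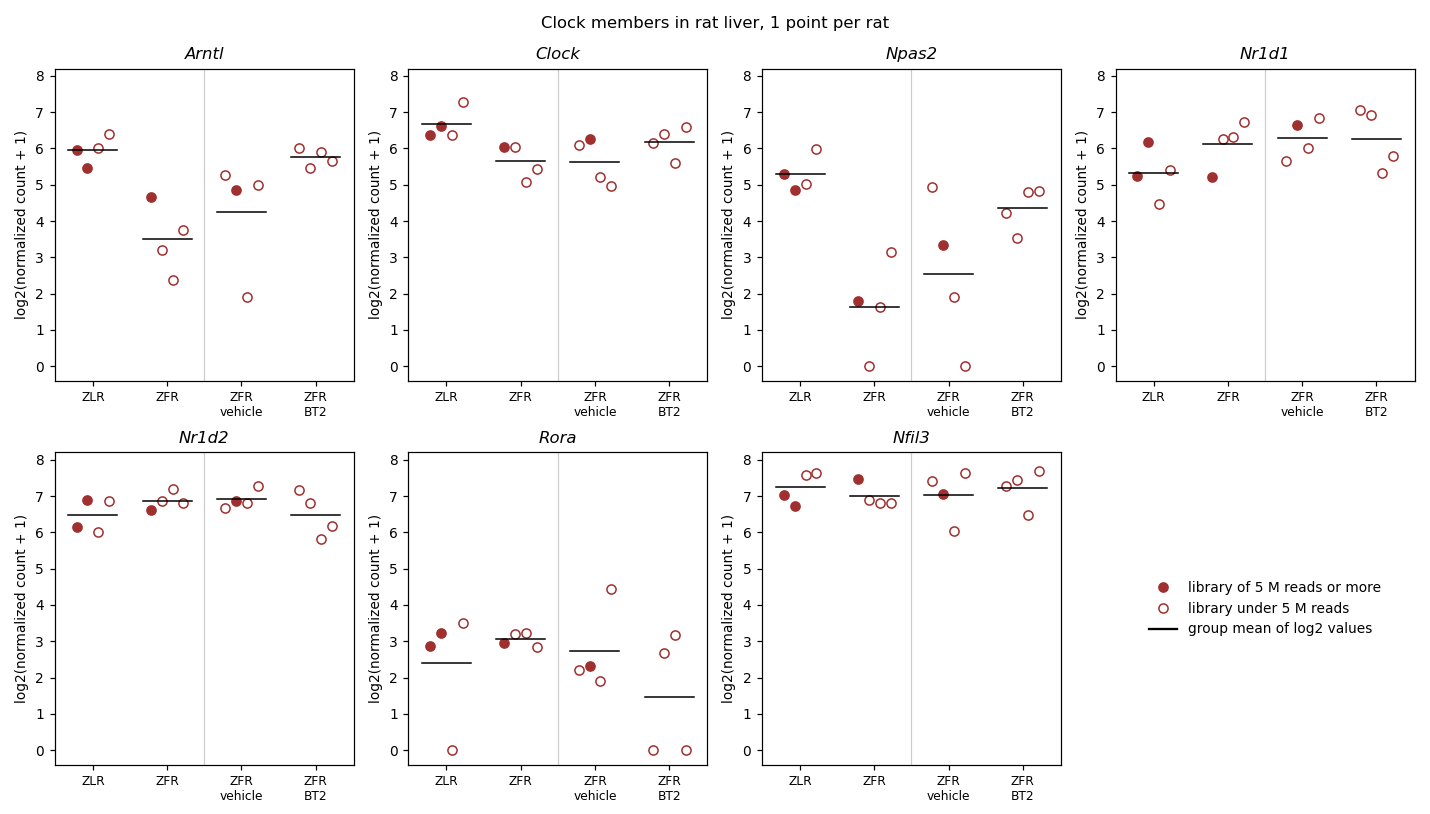
Log2(normalized count + 1) of the 7 clock genes in each rat liver, filled for libraries of 5 M reads or more and open for shallower ones, with the line at the group mean; the grey vertical line parts the 2 tables, which were normalized separately. Arntl, Clock and Npas2 lie lower in every ZFR than in every ZLR, and Arntl lies higher in every BT2-treated than in every vehicle-treated rat.

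ZFR against ZLR asks how the clock genes differ in the liver of obese rats. The activators were lower in ZFR. Arntl fell to 0.197 and Npas2 to 0.0769 times the ZLR mean, and Clock, at 0.494 times, did not pass after adjustment. Neither the REV-ERBs nor Nfil3 passed. At an adjusted p under 0.05, 2 of 6 tested genes were called, where 4.25% of 8633 genes were, and 3 of 6 had an unadjusted p under 0.05, against 16.6%. Values of 3 of 6 genes were lower without overlap, as for 6.68% of all genes. The median log2 fold change was -0.63 over the 6 genes and 0.070 over all genes.

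Arntl was 60.8, 43.4, 63.2 and 83.5 in ZLR and 24.5, 8.24, 4.18 and 12.4 in ZFR. Behind these stood 1588, 1004, 6 and 8 estimated reads in ZLR and 760, 7, 2 and 8 in ZFR. Every ZFR lay below every ZLR, and the highest ZFR, replicate 1, is also the deepest (log2 fold change -2.46, SE 0.46, limma adjusted p = 0.0155). The 95% Poisson intervals, which cover counting error only, were 22.7 to 26.3 normalized counts for that rat and 40.7 to 46.1 for the lowest ZLR, replicate 2. They were 0.506 to 15.1 for ZFR replicate 3 and 23.2 to 138 for ZLR replicate 3. The call was lost without ZFR replicate 2 (adjusted p = 0.0517), and without the libraries under 5 M reads, which left 1 ZFR and 2 ZLR, the log2 fold change was -1.04 (limma adjusted p = 0.255, taking the lone ZFR to vary as the ZLR do).

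Npas2 was 37.9, 28.0, 31.6 and 62.7 in ZLR and 2.45, 0, 2.09 and 7.78 in ZFR, from 990, 648, 3 and 6 estimated reads and from 76, 0, 1 and 5. The count of 0 in ZFR replicate 2 allows up to 3.53 normalized counts (3 reads). All ZFR values were under 10 and all ZLR values above 25 (log2 fold change -3.65, SE 0.69, limma adjusted p = 0.0165). In the 3 deep libraries alone Npas2 was 2.45 in the ZFR and 28.0 and 37.9 in the ZLR, a mean 13.5-fold higher in ZLR, and the fit gave -3.29 (limma adjusted p = 0.0369, with no spread among ZFR and the lone ZFR taken to vary as the ZLR do). The call in the whole table was lost without ZLR replicate 1 (adjusted p = 0.0569).

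Clock was 82.4, 96.7, 82.4 and 153 in ZLR and 65.2, 64.8, 32.7 and 42.1 in ZFR. The groups did not overlap (log2 fold change -1.01, SE 0.28, limma adjusted p = 0.0870), and Clock passed with a weight for the quality of each sample (adjusted p = 0.0283, log2 fold change -0.71). In the deep libraries the ZLR mean was 1.37-fold that of the ZFR. The two-sided exact permutation p was 0.0286 for each of Arntl, Npas2 and Clock, the smallest that 4 rats against 4 allow, and all were lower in ZFR in 2 of 2 flow cells (Arntl -3.14 to -1.77, Npas2 -4.18 to -3.13 and Clock -1.57 to -0.45 on the log2 scale).

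Nr1d1 was 36.9, 72.1, 21.3 and 41.7 in ZLR and 36.2, 75.2, 79.3 and 104 in ZFR. The single deep ZFR had the lowest ZFR value, so the 3 deep libraries gave a ZLR mean 1.50-fold higher while the whole table gave a positive log2 fold change for ZFR (log2 fold change 0.80, SE 0.40, limma adjusted p = 0.363, or -0.50 without libraries under 5 M reads). Nr1d2 was 69.2, 118, 63.2 and 115 in ZLR and 97.6, 115, 144 and 110.4 in ZFR, with overlapping groups (log2 fold change 0.39, 95% interval -0.066 to 0.86). Nfil3 was 129.8, 106, 189.6 and 198 in ZLR and 176, 118, 111 and 110.4 in ZFR, also overlapping (log2 fold change -0.26, 95% interval -0.72 to 0.21, or 0.58 without libraries under 5 M reads). The direction of Nr1d1 and Nfil3 between ZFR and ZLR thus turned when the libraries under 5 M reads were left out, which also left 1 ZFR and 2 ZLR.

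Of the 16 other clock genes 13 were tested, and 4 rose in ZFR (0 fell), where 4.25% of all genes were called in either direction. By limma 9 of 13 had an unadjusted p under 0.05, against 16.6% of all genes. The 4 called were the D-box activators Dbp (log2 fold change 5.01, SE 0.85, limma adjusted p = 0.00922) and Tef (1.19, adjusted p = 0.0207) and the period genes Per3 (4.30, adjusted p = 0.0186) and Per2 (2.11, adjusted p = 0.00753). Within a rat, Arntl minus Nr1d1 on the log2 scale was 0.62 ± 0.96 in ZLR and -2.63 ± 1.46 in ZFR (mean ± SD, n = 4 each). Of the cell type markers, Col1a1 (4.16, limma adjusted p = 0.0223) and Stab2 (1.16, limma adjusted p = 0.0330) rose in ZFR. The hepatocyte genes Cps1 (-0.58, limma adjusted p = 0.0483) and Ttr (-0.43, limma adjusted p = 0.0375) fell. A log2 fold change above 0 was seen for 3 of 5 stellate, 2 of 4 endothelial and 0 of 5 hepatocyte markers. The 5 stellate markers summed to 166 to 265 in ZFR and 111 to 190.1 in ZLR and the endothelial markers, 4 of 5 in the table, to 265 to 397 and 294 to 336, none at 0 in every library, and their part in the clock differences was not tested.

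BT2 against vehicle in ZFR asks whether a week of the compound changes these genes in obese rats. By limma 0 of 6 tested clock genes passed an adjusted p under 0.05, as did 0.00% of 8405 genes, and 1 of 6 had an unadjusted p under 0.05, against 3.95% of all genes. That gene was Arntl, whose mean was 2.16-fold higher with BT2 and whose values were higher without overlap, as for 1.52% of all genes. The other 5 overlapped. The median log2 fold change was 0.36 over the 6 genes and 0.0061 over all genes.

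Arntl was 37.8, 28.0, 2.75 and 31.0 with vehicle, from 62, 125, 3 and 3 estimated reads, and 64.1, 42.7, 58.9 and 48.9 with BT2, from 18, 32, 44 and 9. All BT2 rats lay above all vehicle rats, and vehicle replicate 3 lay far below the rest (log2 fold change 1.50, SE 0.63, limma adjusted p = 0.898). Without it the log2 fold change was 0.71 (limma adjusted p = 0.928). The 95% Poisson intervals were 6.39 to 90.5 for vehicle replicate 4 and 22.4 to 92.9 for BT2 replicate 4, so counting error alone leaves their order unsettled. The difference was positive in 2 of 2 flow cells (0.67 to 2.32), and the two-sided exact permutation p was 0.0286, the smallest possible.

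Npas2 was 29.9, 9.18, 2.75 and 0 with vehicle and 17.8, 10.7, 26.8 and 27.2 with BT2. The vehicle rats covered the whole range of the BT2 rats, and the 0 of vehicle replicate 4 allows up to 31.0 normalized counts, above every BT2 value (log2 fold change 1.80, SE 0.94, limma adjusted p = 0.898). Clock was 67.3, 76.1, 36.4 and 30.3 and 70.1, 82.8, 47.1 and 95.7, overlapping (log2 fold change 0.54, 95% interval -0.11 to 1.19). For Nr1d1 (81.5 ± 29.8 (SD, n = 4) with vehicle and 86.5 ± 46.7 (SD, n = 4) with BT2) the interval was -0.82 to 0.78, for Nr1d2 (121 ± 23.5 and 94.7 ± 39.5) -0.98 to 0.13, and for Nfil3 (141 ± 57.0 and 155 ± 49.7) -0.51 to 0.87.

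Arntl minus Nr1d1 within a rat was -2.03 ± 1.55 with vehicle and -0.52 ± 0.92 with BT2 on the log2 scale (mean ± SD, n = 4 each). Of the other clock genes 13 were tested and 0 passed by limma. Dbp, the 1 with an unadjusted p under 0.05, had a log2 fold change of -2.21 (SE 0.71, limma adjusted p = 0.898), followed in size by Per3 (-1.26, adjusted p = 0.898). No cell type marker was called, and the 5 stellate markers summed to 77.7 to 154 with vehicle and 63.1 to 90.7 with BT2. Among rats of one group Nfil3 followed Arntl in the ZFR and ZLR table (Pearson's r = 0.71, exact permutation p = 0.0174, Spearman's rho = 0.667, exact permutation p = 0.0799, n = 8), with r = 0.72 without the 2 rats farthest in Arntl. In the BT2 table r was 0.70 (exact permutation p = 0.175, n = 8) and -0.39 without 2 rats, and the REV-ERBs kept a positive r with each other in both (0.71 and 0.94). No other gene's r with Arntl passed in rats. In the ZFR and ZLR table r was 0.62 for Clock, 0.36 for Npas2, -0.54 for Nr1d1 and -0.44 for Nr1d2 (exact permutation p = 0.177 to 0.615). In the BT2 table it was 0.30, 0.26, 0.10 and 0.08 in that order (exact permutation p = 0.663 to 0.913). The relations of Npas2 and the REV-ERBs with Arntl seen in mice were thus not established in rats.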

How the data were processed

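Poly(A)-selected RNA of 37 livers (21 mice, 16 rats) was sequenced. Per the study's methods the authors aligned reads with STAR 2.5.3a to mm10 or rn6, quantified with Salmon 0.6.0 and normalized with DESeq2; the deposited signal is a normalized count per gene, scaled separately in each of 4 tables. Whole reads could not be recovered: among low values the share within 0.02 reads of a whole number of reads was 66.1% to 72.3% for mouse libraries and 75.7% to 89.0% for rat libraries, so no count model was run. Samples were grouped by their titles; 0 columns were left unmatched. Tests used limma 3.58.1 (lmFit, eBayes with trend) in R 4.3.3 on log2(normalized count + 1), so folds of low genes are understated, over all genes with a mean of at least 10, with Benjamini-Hochberg adjustment. Exact permutation tests and permutations for correlations (100000 draws where exact enumeration was not used) ran in Python 3.11.15 with scipy 1.17.1. Intervals of log2 fold changes and of the interaction took the SE times the normal quantile. The limma p-values rest on a t distribution, so these intervals are narrower than those tests imply. The scripts were checked on simulated data.

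The 7 genes, the list of other clock genes and the marker lists were chosen with earlier results of these data known. Named are the 7 genes, genes that overlap them, the 2 other clock genes with the largest change in each comparison and every one called, and the 5 genes most like and unlike Arntl; the markers named are those called. The alternatives tried were 10 as the pseudocount, no minimum mean, TMM scaling (trims 0.3 and 0.05), sample quality or read precision weights, flow cell or background as terms, the replicate number as a block, WT or floxed mice alone, other adjusted p limits, libraries of at least 5 M reads, and each library left out. The LNA sequences and the values of some genes that these rules name are not reported here.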

Additional observations from a re-analysis of the deposited data

Results flagged for a closer look

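Values of the clock genes in 51 combinations of gene and group were searched for a sample far from the others of its group (Dixon's ratio on the log2 scale, at its 95% critical value), and 3 were found, where chance alone gives about 1 in 20. Arntl in vehicle-treated ZFR was lowest in replicate 3, at 2.75 normalized counts, where the other 3 rats were at 28.0 to 37.8. Nfil3 in saline-treated mice labelled L-Sirt1 KO was lowest in replicate 3, at 958 normalized counts, where the other 3 mice were at 2467 to 2848. Nfil3 in ZFR was highest in replicate 1, at 176 normalized counts, where the other 3 rats were at 110.4 to 118, and that library is the only one of the 4 with over 5 M reads.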

How the results depend on the processing

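Of 1076 recomputed values, 984 were kept. For single genes this meant the same direction and side of the threshold, and for counts a value within 1.5 times the reported count. The 1076 include 160 counts of called clock genes, of which 136 were kept. Of the correlations with Arntl, the 1076 hold only those of Npas2, Nr1d1, Nr1d2 and Nfil3 in mice. Among the kept counts, 0 stayed 0 with BT2 (16 counts) and for the interaction (29). For the slope on Arntl, 37 counts left 1 library out of 1 table and carried over the other tables unchanged. In WT/Floxed mice 6 of 13 counts with 1 library left out were kept. The causes of the changes were not tested. The 1 call in WT/Floxed mice (Nfil3) became 0 with no minimum mean, with the replicate number as a block (Nfil3 0.32, adjusted p = 0.560), with an adjusted p under 0.05 and in WT mice alone; floxed mice alone gave 1, Rora in place of Nfil3, and leaving out 1 library gave 0 to 2. For the L-Sirt1 KO label the count of 0 became 1 with sample quality weights (Npas2), and was 0 to 1 without 1 library. For ZFR against ZLR the 2 calls became 0 with no minimum mean (adjusted p = 0.0566 for Arntl and 0.0528 for Npas2) and 1 without libraries under 5 M reads, became 3 with sample quality weights and at an adjusted p under 0.2, and were 1 to 2 without 1 library. Floxed against WT gave 1 in place of 0 at an adjusted p under 0.2 (Clock). The slope on Arntl gave 0 to 2 calls without 1 library, in place of 1, and 1 without the 2 libraries farthest in Arntl, then in WT/Floxed mice. BT2 and the interaction gave 0 under every alternative run.

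Among the 1076 values, directions turned only for those that passed no test. Outside the 1076, some correlations with Arntl turned without the 2 animals farthest in Arntl. They were Clock under the L-Sirt1 KO label (0.85 to -0.30) and, in the BT2 table, Nfil3 (0.70 to -0.39), Clock (0.30 to -0.55), Npas2 and Nr1d1. None of these had passed with all animals. Clock with LNA29 in WT/Floxed mice was -0.055 with sample quality weights, -0.038 with flow cell as a term, -0.013 with the replicate block and -0.12 in WT mice alone, and, under the L-Sirt1 KO label, -0.053 with sample quality weights. For ZFR against ZLR, Nr1d1 was -0.15 with sample quality weights and -0.50 without libraries under 5 M reads, and Nfil3 0.35, 0.58 and, with read precision weights, 0.014. Nr1d1 with BT2 was 0.35 with sample quality and 0.074 with read precision weights. In the interaction Clock was -0.0073 with sample quality weights and Rora 0.0040 with flow cell as a term. Leaving out 1 library, values ranged from -0.033 to 0.38 for Npas2 and -0.091 to 0.083 for Clock in WT/Floxed mice, -0.14 to 0.17 for Clock in mice labelled L-Sirt1 KO, -0.28 to 0.30 for Nr1d1 and -0.15 to 0.43 for Nfil3 with BT2, -0.14 to 0.17 for Clock and -0.095 to 0.048 for Rora in the interaction, and -0.18 to 0.56 for Nr1d1, -0.30 to 0.092 for Nr1d2 and -0.00062 to 0.16 for Arntl in floxed against WT mice.

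The labels state no pairing of same-numbered mice or rats, and the correlation of their deviations was -0.281 to 0.241. Same-numbered rats of a table shared a flow cell, as did some same-numbered mice. Counts over all genes moved more than those of the clock genes, over the alternatives and libraries left out: from 56 (replicate block) to 1308 (sample quality weights) around 688 in WT/Floxed mice, from 37 (adjusted p under 0.05) to 804 (sample quality weights) around 297 under the L-Sirt1 KO label (145 with the replicate block), from 73 (without libraries under 5 M reads) to 1169 (sample quality weights) around 367 in ZFR against ZLR, from 0 to 2 with BT2, from 0 to 1220 around 7 for the interaction and from 204 to 4062 around 895 for floxed against WT. The block changed no call of a clock gene but that of Nfil3. Fits of BT2 and of the slope on Arntl in rats without libraries under 5 M reads were not run, since too few libraries were left. Depth limits the rat values: 12 of 16 libraries held under 5 M reads.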
